A study of Mus musculus with 6 samples.

Results

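This set of 8 microRNA names, made by unusual routes or abundant in red cells, was followed in mouse tumors and oviducts. They are miR-451a with its cluster mate miR-144 (2 strands), miR-486a-5p and miR-486b-5p, miR-320 (2 strands) and miR-484. The members were taken by name from the 1915 mouse names of the deposited table. All 8 had counts in at least 1 library. The rows of miR-486a-5p and miR-486b-5p were identical and were counted once, which left 7 members. Of these 7, miR-451a, miR-486a-5p, miR-320-3p and miR-484 passed the filter on low counts and were tested among 227 names. The 2 strands of miR-144 and miR-320-5p had too few counts to be tested.

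MicroRNAs are short RNAs that guide Argonaute proteins to messenger RNAs. Most are cut from a long transcript by Drosha and then from a hairpin by Dicer, which releases a 5p and a 3p strand. The miR-451a hairpin is cut out by Drosha, but the piece released is too short for Dicer and is sliced by Argonaute 2 instead. The miR-144 hairpin lies on the same primary transcript, which is driven by GATA1 in red-cell precursors, and it needs Dicer. The miR-486 hairpin is expressed in red-cell precursors and in muscle, where its host gene Ank1, encoding ankyrin 1, is also active. The hairpins of miR-320 and miR-484 begin at the start of a capped transcript and are made without Drosha, but still need Dicer.

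The tumor group held 3 primary tumors with the genotype Dicer1ko/D1693N, called ADT tumors in the labels, which give oviduct as their tissue. The oviduct group held 3 normal oviducts with the genotype Dicer1+/D1693N. All 6 libraries thus carried the D1693N allele of Dicer1, and no animal was treated. D1693N alters the RNase IIIb domain, the part of the enzyme that frees 5p strands. The labels name no promoter, Cre line, age or strain, and it is not stated that each sample is a different animal. The p-values therefore reflect sample-to-sample spread, part of which may be technical. The column headers also carry a tag with one value for all oviducts and another for all tumors. It changes together with tissue state and genotype, and the effects of these cannot be told apart.

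Libraries held between 154002 and 272167 mouse counts in the tumors and between 297039 and 580390 in the oviducts. Levels are counts scaled to a common library size (CPM) after scaling with trimmed mean of M-values (TMM) factors. The epithelial cells that bear cilia in the oviduct express miR-34c-5p, which ranged from 47.2 to 715 CPM in the tumors and from 12879 to 20043 CPM in the oviducts. Of the 3 names listed for these cells, all 5p strands, 2 were called lower (adjusted p under 0.05). So were 48.4% of all tested 5p names. The name not called was miR-449a-5p (log2 change -2.15, edgeR adjusted p = 0.147). It had 161, 0 and 4.40 CPM in tumors 1, 2 and 3 and between 150 and 340 CPM in the oviducts. A loss of ciliated cells was not tested. Tumor 1 stood apart from the other tumors in several names. Its miR-143-3p, a strand of smooth muscle and fibroblasts, took 60.9% of the counts, against 27.7% and 13.9% in tumors 2 and 3 and between 44.1% and 47.2% in the oviducts. The other strand, miR-143-5p, had 116, 30.1 and 22.0 CPM in tumors 1, 2 and 3 and between 98.8 and 153 CPM in the oviducts. The part of these cells in tumor 1 was not tested.

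The mature sequences in RefSeq (GRCm38.p6) show what tells the members apart. Of the 8 member names, 4 had an entry. They are printed 5′ to 3′ with the seed, bases 2 to 8, in capitals, because the seed sets most of a microRNA's targets.
mmu-miR-451a: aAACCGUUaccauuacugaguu
mmu-miR-144-3p: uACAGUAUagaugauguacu
mmu-miR-144-5p: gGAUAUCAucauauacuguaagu
mmu-miR-484: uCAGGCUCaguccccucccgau
No seed was shared between these 4, and 0 other names among the 1679 mature names of that table carried any of them. In bases 2 to 7 only, miR-144-3p matched miR-101a-3p, and miR-484 matched miR-1191b-5p and miR-7656-3p.

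The annotated hairpins of the cluster show where the mature strands lie, with the mature strand in capitals.
Mir451a, miR-451a in capitals: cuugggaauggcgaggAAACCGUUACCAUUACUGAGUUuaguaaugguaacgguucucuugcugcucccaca
Mir144, miR-144-3p in capitals: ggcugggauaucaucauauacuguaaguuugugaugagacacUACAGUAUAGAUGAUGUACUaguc
Mir144, miR-144-5p in capitals: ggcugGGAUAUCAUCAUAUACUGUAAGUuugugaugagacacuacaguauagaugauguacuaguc
The annotated hairpins have 72 bases for Mir451a and 66 for Mir144, and the part that Drosha releases is not marked in them. Mature miR-451a occupies positions 17 to 38 of its 72-base hairpin. In a structure predicted with RNAfold, 18 of its 22 bases lay in the 5′ arm and 4 in the loop. Both miR-144 strands lay wholly outside the predicted loop, on opposite arms. The mature miR-484 is the 5′ part of its hairpin, at positions 5 to 26 of 67, and like miR-451a it carries no arm in its name.

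On GRCm38 (GENCODE M21) Mir144 lies at chromosome 11, 78073005 to 78073070, and Mir451a at 78073170 to 78073241, both on the plus strand, with 99 bases between them. Neither overlaps a protein-coding gene, and the nearest is Eral1. Mir451b is annotated on the opposite strand of the same 72 bases as Mir451a, and miR-451b had 0 counts in all libraries. Mir486 lies at chromosome 8, 23142555 to 23142682, in an intron of Ank1 and on its strand. Mir3107, the RefSeq symbol for mir-486b, lies inside the same bases on the opposite strand, from 23142573 to 23142662. Mir320 lies at chromosome 14, 70443510 to 70443591, with 62 bases between it and Polr3d, which is on the opposite strand. Mir484 lies at chromosome 16, 14159626 to 14159692, opposite an exon of Marf1.

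Among the red-cell names, miR-451a was higher in the tumors and miR-486a-5p was not called. The level of miR-451a was 1088, 150.3 and 329.7 CPM in tumors 1, 2 and 3, against 165.3, 136.9 and 158.1 CPM in oviducts 1, 2 and 3. Tumor 1 was high, tumor 3 was above every oviduct, and tumor 2 lay within the oviduct range, so the groups overlapped. The oviducts lay close together, with an SD of 14.7 around a mean of 153.4 CPM, while the tumors had an SD of 498 around 523 CPM (n = 3 each). Set against the oviduct mean, miR-451a was 7.09-fold in tumor 1, 0.979-fold in tumor 2 and 2.15-fold in tumor 3.

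The rise of miR-451a was 3.40-fold over the groups (log2 1.76, SE 0.65, edgeR quasi-likelihood adjusted p = 0.0449), with a 95% interval from 1.24-fold to 9.32-fold. It was the single member called, 1 of 4, while 52.4% of all 227 tested names were called and 26.9% were called higher. The call was lost in 9 of 17 alternative settings, with adjusted p between 0.00454 and 0.475 over all 17. Without tumor 1 the log2 change was 0.42 (adjusted p = 0.475). Without tumor 2 it was 2.22, and without any single oviduct or without tumor 3 the call was also lost. With TMM factors taken from 3p names alone it was 0.89 (adjusted p = 0.249). In bulk tissue, more cells of a type and more RNA per cell cannot be told apart.

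Shares of raw counts use the library total in place of a TMM factor. In the tumors miR-143-3p took between 13.9% and 60.9% of that total. As a share, miR-451a took 0.0794% (exact Clopper-Pearson 95% interval 0.0691 to 0.0907), 0.0198% (0.0138 to 0.0276) and 0.0487% (0.0383 to 0.0610) in tumors 1, 2 and 3. In oviducts 1, 2 and 3 it took 0.0141% (0.0106 to 0.0185), 0.0129% (0.0102 to 0.0162) and 0.0135% (0.00962 to 0.0183). On this scale, unlike in TMM-scaled CPM, all 3 tumors lay above all 3 oviducts, although the interval of tumor 2 overlapped those of the oviducts. With library totals alone the median log2 change over all 227 tested names was 0.65. The part of all names that separate the groups on this scale was not determined. The two-sided exact permutation test gave p = 0.1, the smallest that 3 against 3 allows, and p = 0.35 after adjustment over the 7 members.

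The most abundant member was miR-486a-5p, which made up between 63.4% and 85.4% of the members' counts in the tumors and between 86.7% and 87.5% in the oviducts. It had 10469, 1713 and 2194 CPM in tumors 1, 2 and 3, against 5469, 4335 and 4688 CPM in oviducts 1, 2 and 3. Tumor 1 was above every oviduct and the other tumors were below every oviduct. In tumor 1 it was the 11th most counted mouse name, and in tumors 2 and 3 it ranked 39 and 34, against 21 to 24 in the oviducts.

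Over the groups miR-486a-5p averaged 4792 ± 4922 CPM in the tumors and 4831 ± 580 CPM in the oviducts (SD, n = 3 each). Its log2 change was -0.01 (SE 0.62, edgeR adjusted p = 0.995), with a 95% interval from 0.377-fold to 2.61-fold, a range that holds both falls and rises. Without tumor 1 it was called lower, with a log2 change of -1.56 (adjusted p = 0.00353). Its share of raw counts was 0.764%, 0.226% and 0.324% in tumors 1, 2 and 3 and 0.467%, 0.409% and 0.399% in oviducts 1, 2 and 3.

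**Figure D1:**
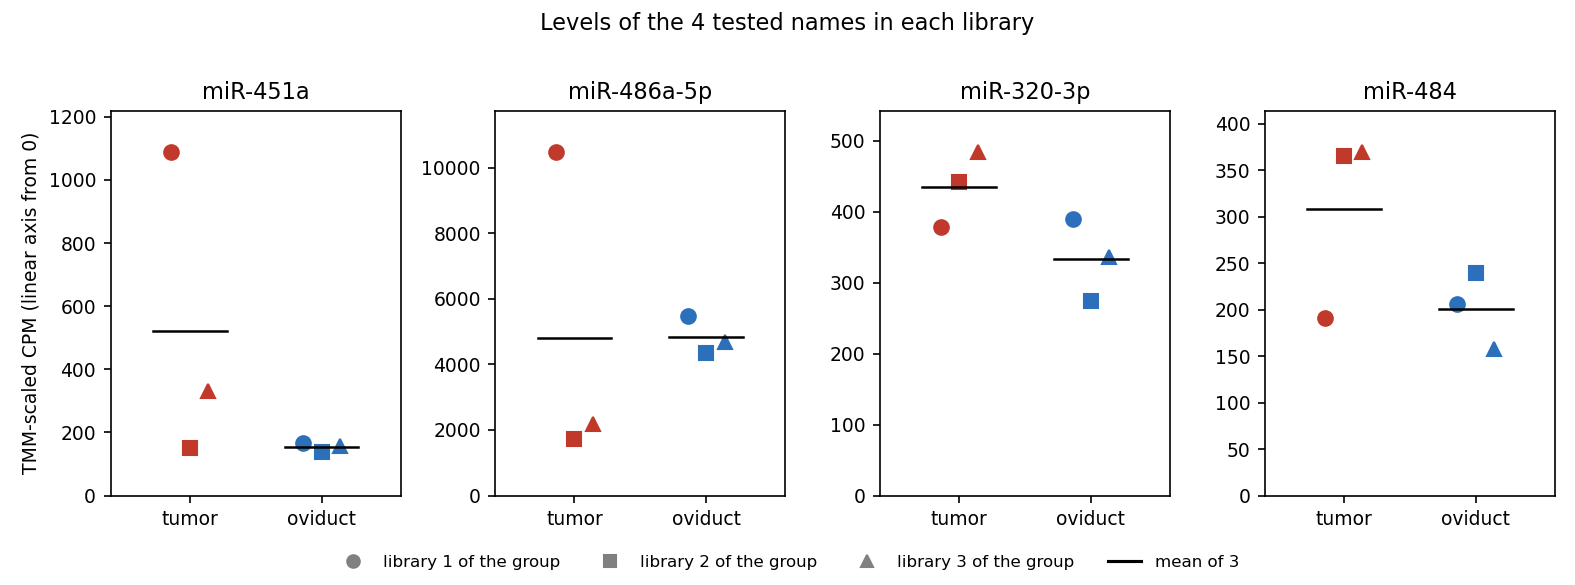
TMM-scaled CPM of the 4 tested names in each library, on linear axes that start at 0 and differ between panels. Symbols mark libraries 1 to 3 of each group and black lines the means. Tumor 1 is the highest library for miR-451a (1088 CPM) and miR-486a-5p (10469 CPM) but the lowest tumor for miR-320-3p and miR-484.

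The ratio of the 2 abundant red-cell names differed between the groups more evenly than either level. For every 100 counts of miR-486a-5p there were 10.4, 8.77 and 15.03 counts of miR-451a in tumors 1, 2 and 3, against 3.02, 3.16 and 3.37 in oviducts 1, 2 and 3. Every tumor lay above every oviduct, tumor 1 included. The log2 ratio was 1.80 higher in the tumors, at -3.16 ± 0.39 against -4.96 ± 0.08 in the oviducts (SD, n = 3 each), a 3.48-fold difference. The two-sided exact permutation test gave p = 0.1, the smallest possible, and p = 0.4 after adjustment over the 4 ratios compared. Leaving out any 1 library kept the difference between 1.58 and 1.97.

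Set against the same miR-486a-5p counts, many names moved. Of the other 225 tested names, 23.1% had ratios that were higher in every tumor than in every oviduct, and 61 had a larger rise than miR-451a. The median change over all 225 was 0.66 on the log2 scale. What was tight was the oviduct ratio of miR-451a, whose SD of 0.08 compared with a median of 0.40 over all names, and 7 names had a smaller one. The ratio in these 3 oviducts thus varied less than that of most names, and the rise itself was of a common size. The oviduct ratios rest on 53, 75 and 40 counts of miR-451a in oviducts 1, 2 and 3. Counting error was not separated from the spread between libraries, so the small SD is a description of these libraries only.

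**Figure D2:**
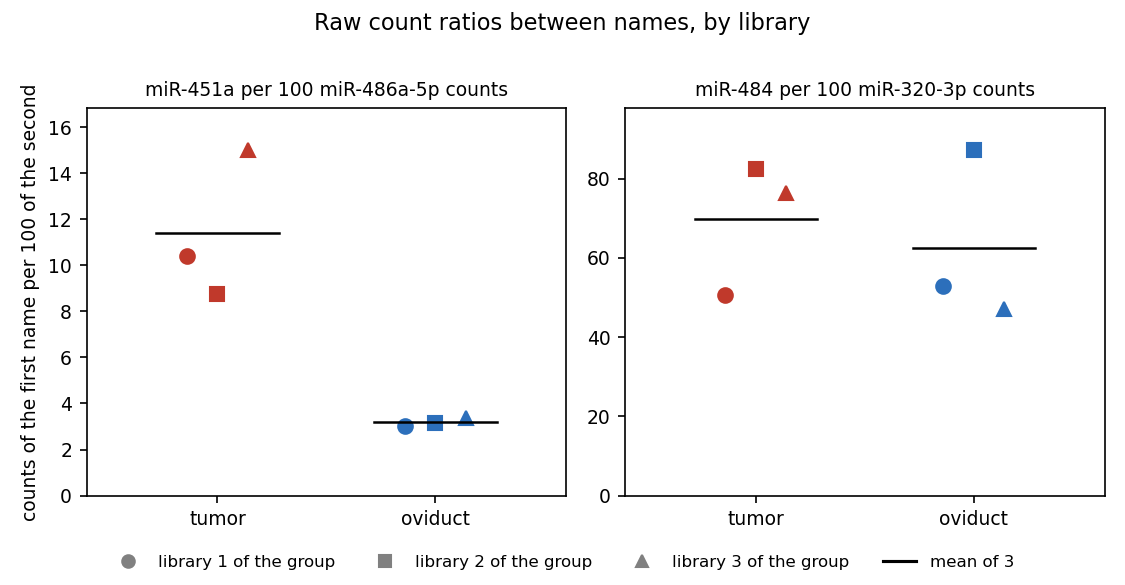
Counts of miR-451a per 100 counts of miR-486a-5p (left) and of miR-484 per 100 of miR-320-3p (right) in each library, on linear axes from 0. Symbols mark libraries and black lines the means. On the left the tumors lie between 8.77 and 15.03 and the oviducts between 3.02 and 3.37, while on the right the groups overlap.

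The cluster mate miR-144 was barely counted in either tissue. Its 3p strand, the main guide in red-cell precursors, had 5, 1 and 0 counts in tumors 1, 2 and 3, against 6, 2 and 0 in oviducts 1, 2 and 3. Its 5p strand had 16, 2 and 2 counts in the tumors, against 1, 6 and 6 in the oviducts. Of the 20 pooled tumor counts of the 5p strand, 16 came from tumor 1, which was also the highest library for miR-451a and miR-486a-5p.

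Per pooled library total, miR-144-3p was 1.56-fold in the tumors relative to the oviducts, with an exact interval from 0.446 to 5.12, and miR-144-5p was 3.20-fold, from 1.51 to 6.996. Without tumor 1 these ratios were 0.474-fold (0.0107 to 3.53) and 1.17-fold (0.277 to 3.77). Without oviduct 1 the ratio of miR-144-3p was 4.37-fold. These intervals cover counting error only and leave out the spread between libraries. The ratios also use library totals without TMM factors, and on library totals the median log2 change over all 227 tested names was 0.65. A library with 0 counts allows up to 3 counts, which is 13.2 CPM in tumor 3 and 11.9 CPM in oviduct 3. The log2 ratio of miR-451a to miR-144-3p was 5.70 ± 1.38 in the tumors and 4.77 ± 1.65 in the oviducts (SD, n = 3 each), a difference of 0.93 within the spread of both groups (exact permutation p = 0.5). The smallest p of this design is 0.1, and in tumor 3 and oviduct 3 the ratio rests on the 0.5 added to a count of 0. These counts therefore say little on how the Argonaute-sliced strand changed against the Dicer-cut strand of the same transcript. The ratio of miR-144-3p to miR-486a-5p likewise did not separate the groups, with a log2 difference of 0.87 (exact permutation p = 0.6).

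Other blood names were read beside these. Of 4 names that are abundant in red cells but broadly expressed, 3 were tested, and 1 was called higher. That compares with 26.9% of all 227 tested names and 41.8% of 3p names. The called name was miR-25-3p, of the miR-106b cluster. It averaged 4358 ± 1267 CPM in the tumors and 1302 ± 251 CPM in the oviducts (log2 1.74, SE 0.36, edgeR adjusted p = 0.00246). The other tested names, miR-16-5p (log2 0.73, SE 0.41) and miR-92a-3p (log2 0.20, SE 0.29), were not called. The fourth, miR-363-3p, had 25 pooled counts in the tumors and 5 in the oviducts and was not tested. The summed level of the 4 names was 14629, 19389 and 19739 CPM in tumors 1, 2 and 3 and between 10832 and 12112 CPM in the oviducts. This sum did not follow miR-451a across the tumors, but its parts differed. Among the tumors, miR-25-3p and miR-92a-3p were lowest in tumor 2, as miR-451a was, but highest in tumor 3. By contrast, miR-16-5p and miR-363-3p were highest in tumor 2.

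Leukocyte names did not follow miR-451a either. The 4 names miR-223-3p, miR-142a-3p, miR-142a-5p and miR-150-5p were all tested and 0 were called by edgeR, against 52.4% of all 227 tested names. Of these 4, 0 had an unadjusted p under 0.05 and 0 were called by DESeq2, with a median log2 change of 0.65. Their summed level was 765, 4800 and 690 CPM in tumors 1, 2 and 3 and between 1055 and 1721 CPM in the oviducts. Tumor 2, the highest for leukocyte names, was the lowest tumor for miR-451a and miR-486a-5p. Both strands of the endothelial hairpin miR-126a were called higher, as were 2.11% of all tested 5p names and 41.8% of 3p names. The summed level of the 2 strands was 18949, 15198 and 20196 CPM in tumors 1, 2 and 3 and between 7146 and 9548 CPM in the oviducts. The part of blood content or vessel content in the level of miR-451a was not tested.

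Because miR-486 is also a muscle microRNA, muscle names were read beside it. Of miR-1a-3p, miR-133a-3p and miR-206-3p only miR-133a-3p was tested. It had 710, 193 and 39.6 CPM in tumors 1, 2 and 3 and between 553 and 931 CPM in the oviducts (log2 -1.23, SE 0.77, edgeR adjusted p = 0.201). Tumor 1 was thus the highest tumor for miR-133a-3p as well as for miR-486a-5p. The other names of this list, miR-1a-3p and miR-206-3p, had 2 and 3 pooled counts in the tumors and 28 and 0 in the oviducts. At these low counts miR-1a-3p had 5.04, 4.29 and 0 CPM in tumors 1, 2 and 3 and between 9.35 and 32.9 CPM in the oviducts. The part of muscle in the level of miR-486a-5p was not tested.

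Neither of the tested Drosha-independent names was called, and for both the groups overlapped. The 3p strand of miR-320, its main product, had 377.7, 442.2 and 483.6 CPM in tumors 1, 2 and 3, against 389.8, 273.8 and 336.0 CPM in oviducts 1, 2 and 3. Tumors 2 and 3 lay above all oviducts and tumor 1 lay below oviduct 1. The means were 434 ± 53.4 CPM in the tumors and 333 ± 58.03 CPM in the oviducts (SD, n = 3 each). The change of 1.31-fold (log2 0.39, SE 0.32, edgeR adjusted p = 0.332) had a 95% interval from 0.792-fold to 2.15-fold.

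The level of miR-484 was 191.4, 364.9 and 369.3 CPM in tumors 1, 2 and 3, against 205.8, 239.1 and 158.1 CPM in oviducts 1, 2 and 3. Here too tumors 2 and 3 were above every oviduct and tumor 1 was within the oviduct range. It changed by 1.53-fold (log2 0.61, SE 0.41, edgeR adjusted p = 0.231), with a 95% interval from 0.810-fold to 2.89-fold. Neither name was called in any of the 17 alternatives. The direction of both turned when TMM factors came from 3p names alone, to log2 -0.46 for miR-320-3p and -0.23 for miR-484.

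The ratio of these names to each other was also compared. For every 100 counts of miR-320-3p there were 50.7, 82.5 and 76.4 counts of miR-484 in tumors 1, 2 and 3, against 52.8, 87.3 and 47.1 in oviducts 1, 2 and 3. The groups overlapped almost fully, and the log2 difference of 0.18 was smaller than the SD of 0.37 in the tumors and 0.47 in the oviducts (n = 3 each, exact permutation p = 0.8).

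A further 10 strands of mirtrons, which are spliced introns, and of hairpins from small nucleolar RNAs gave little to set beside them. All 10 names were in the table and 9 had counts, but 1 was tested. This was miR-1839-5p, cut from a small nucleolar RNA, at 158.5 ± 26.4 CPM in the tumors and 197.6 ± 61.7 CPM in the oviducts (SD, n = 3 each). Its log2 change was -0.31 (SE 0.45, edgeR adjusted p = 0.572). The mirtron strand miR-1224-3p had 13 pooled counts in the tumors and 1 in the oviducts, and was named after its counts were seen. The 2 strands of the mirtron miR-877 had 2 and 1 pooled counts in the tumors and 8 and 4 in the oviducts for 5p and 3p.

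The strands of a hairpin share one precursor, so their ratio needs no scaling. The miR-320 hairpin shifted towards its 5p strand. It had 6, 4 and 2 counts of miR-320-5p beside 75, 103 and 110 counts of miR-320-3p in tumors 1, 2 and 3, against 0, 0 and 0 beside 125, 150 and 85 in oviducts 1, 2 and 3. All 3 tumors had counts of the 5p strand and none of the 3 oviducts had any. How many other names had counts in the tumors alone was not determined. Names with a count numbered between 502 and 583 in the tumors and between 437 and 542 in the oviducts, although the oviducts had higher totals. Without the low-count filter the median log2 change over 919 names was 0.82. Over the pooled counts, 12 against 0, miR-320-5p was at least 5.78-fold higher in the tumors, the lower limit of the exact 95% interval, which covers counting error in both groups. Taken against a floor of 3 counts over the oviduct group, the 12 tumor counts were at least 8.32-fold higher, a limit that allows for no counting error in the tumors. The log2 5p:3p ratio, with 0.5 added to each count, was 3.37 higher in the tumors (SE 0.66, limma adjusted p = 0.00185), and 4.23% of 142 hairpins were called higher. The size depends on the added count: it was 5.53 with 0.1 and 1.11 with 5, where the call was lost (adjusted p = 0.0621). The 5p strand still made up 4.00% of the pooled counts of this hairpin in the tumors.

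The miR-486a hairpin shifted the other way. Its 3p strand had 7, 1 and 2 counts beside 2079, 399 and 499 counts of the 5p strand in tumors 1, 2 and 3, against 1, 2 and 1 beside 1754, 2375 and 1186 in oviducts 1, 2 and 3. The 3p strand thus took 0.335% of the pooled counts in the tumors and 0.0752% in the oviducts. The log2 5p:3p ratio was 7.94 ± 0.26 in the tumors and 9.90 ± 0.28 in the oviducts (SD, n = 3 each), and the groups did not overlap. The change was -1.97 (SE 0.56, limma adjusted p = 0.0149). It compares with a median of -1.53 over the 142 hairpins, of which 47.2% were called lower, so the change in miR-486a was near that of the typical hairpin. The call was lost without oviduct 1 (adjusted p = 0.056) and rests on 14 counts of the 3p strand in all. The counts of miR-486b-3p were the same except in oviduct 2, with 3 in place of 2.

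The miR-144 hairpin had too few counts for this test. The 5p strand made up 20 of 26 pooled counts in the tumors and 13 of 21 in the oviducts (odds ratio 2.02, exact 95% interval 0.484 to 8.92). With the minimum lowered to 5 counts per library, the change in its log2 ratio was 0.56 (SE 1.23, limma adjusted p = 0.797). Of the hairpins here that need Dicer, miR-486a moved in the common direction, miR-320 moved against it, and miR-144 had no call.

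**Figure D3:**
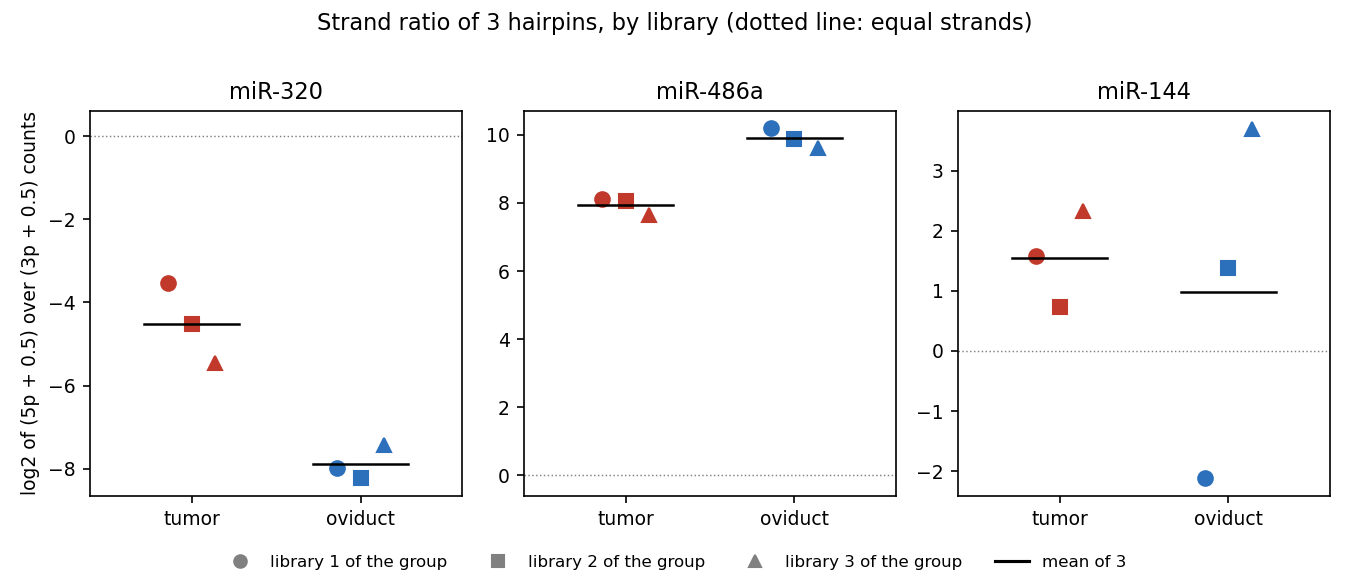
The log2 ratio of 5p to 3p counts, 0.5 added to each, for the miR-320, miR-486a and miR-144 hairpins in each library, with the dotted line at equal strands and black lines at the means. Tumors lie above all oviducts for miR-320 and below all oviducts for miR-486a, and the groups overlap for miR-144.

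Against the whole table, the 4 tested members had a median log2 change of 0.50, while the median was 0.20 over all 227 names, -1.04 over 95 names of 5p strands and 0.89 over 110 of 3p strands. The groups overlapped for all 4 members, while they did not overlap for 60.4% of all tested names. Of the 22 tested names without an arm, 59.1% were called higher, and miR-451a and miR-484 are 2 of these names. Of the 5p names, 48.4% were called lower and 2.11% higher, while miR-486a-5p was not called. Of the 3p names, 41.8% were called higher, while miR-320-3p was not called.

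**Figure D4:**
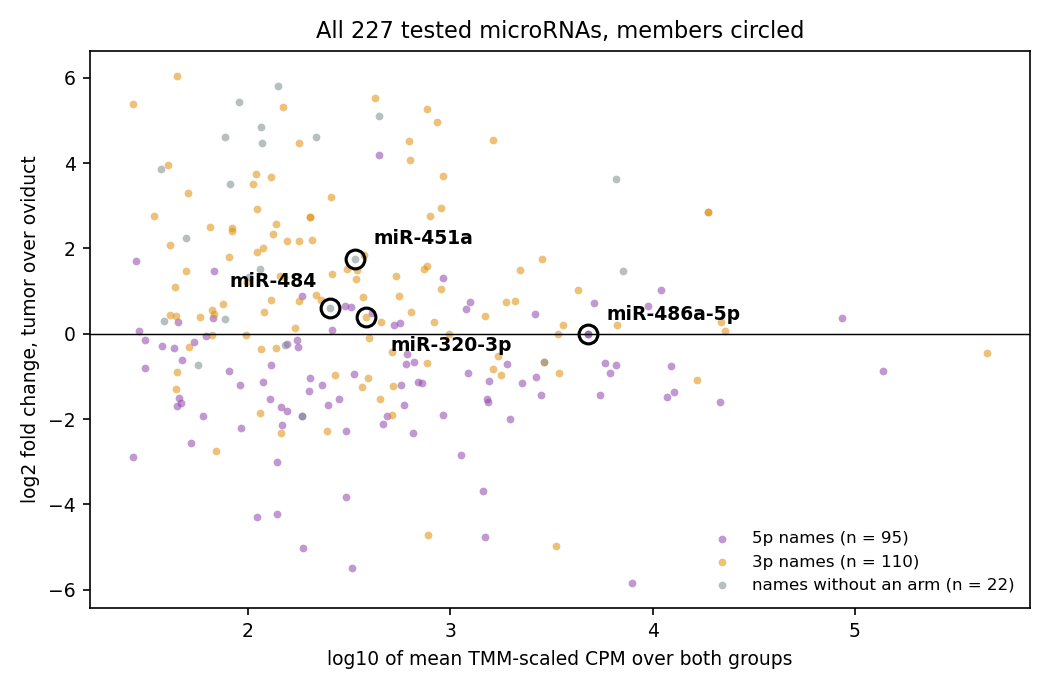
Log2 fold change (tumor over oviduct) against the log10 mean TMM-scaled CPM for the 227 tested names, coloured by arm, with the 4 members circled. Names of 5p strands lie mostly below 0 and 3p names mostly above, and miR-486a-5p (-0.01) lies at the zero line with miR-451a (1.76) above it.

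The names whose levels ran most like the members' were found from the root mean square difference of centred log2 CPM over the 6 libraries, among 222 other distinct rows. This is a description of these libraries. For miR-451a they were miR-3535 (0.33), miR-5099 (0.54) and miR-19b-3p (0.63), where the median name was at 1.46. All 3 were highest in tumor 1, as miR-451a was. For miR-486a-5p they were miR-195a-3p (0.51), miR-143-3p (0.52) and miR-143-5p (0.61), where the median name was at 1.25. Like miR-486a-5p, miR-143-3p was above all oviducts in tumor 1 and below all oviducts in tumors 2 and 3. The list for miR-486a-5p held no red-cell name and that for miR-451a did not hold miR-486a-5p. For miR-320-3p they were miR-182-5p (0.07), miR-151-3p (0.11) and miR-15b-5p (0.19), and for miR-484 they were miR-10a-5p (0.18), miR-342-3p (0.21) and miR-423-3p (0.25), where the median names were at 0.92 and 1.02. None of these last 6 names was called by edgeR.

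**Figure D5:**
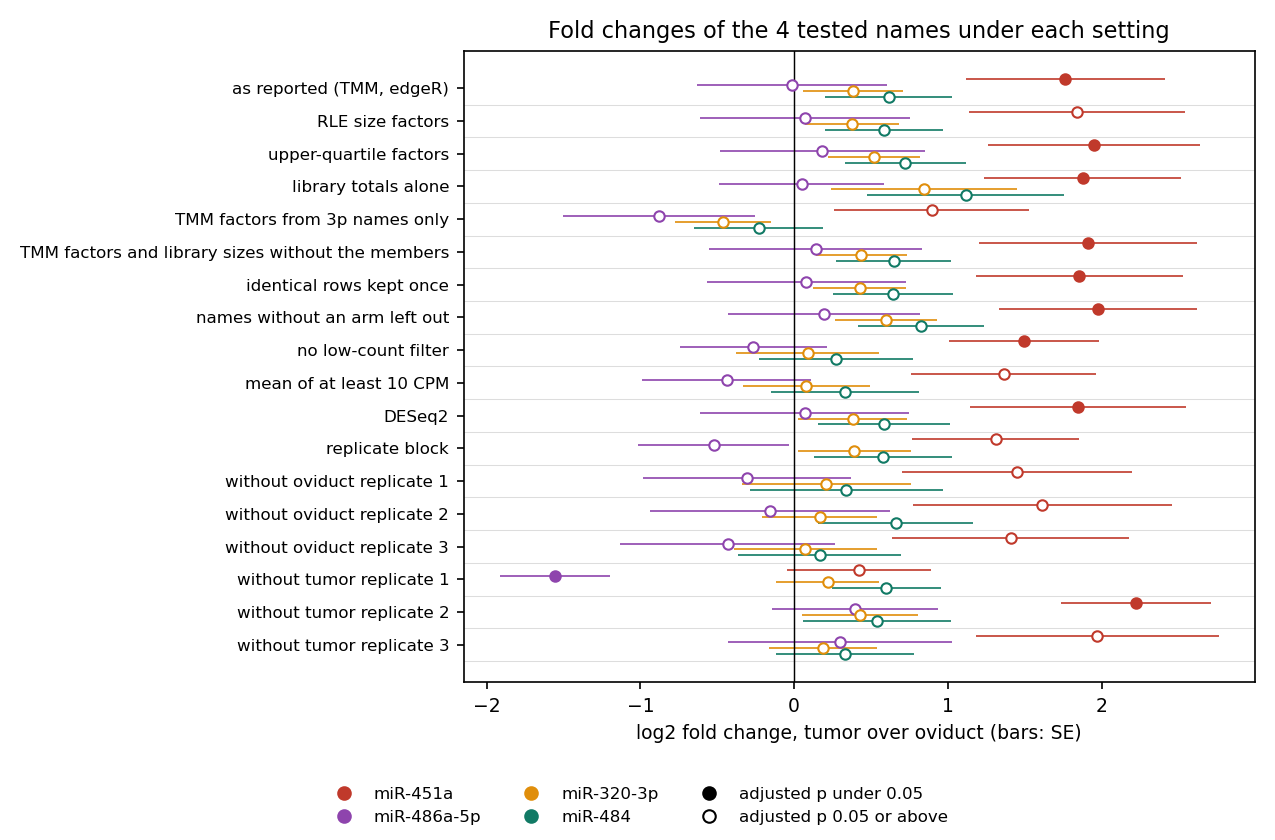
Log2 fold changes (tumor over oviduct) of the 4 tested names as reported and under 17 alternative settings, with SE as bars and filled points for an adjusted p under 0.05. The miR-451a points stay to the right of 0 but lose their call in 9 settings, and miR-486a-5p is called once, at -1.56 without tumor 1.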

How the data were processed

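Small RNA libraries of 3 tumors and 3 oviducts were compared. The deposited values are raw counts per mature microRNA name, which the authors made, per the file headers, from BAM files of trimmed reads. Per the submitters' processing notes, cutadapt was the tool used. For the aligner, the genome build, the microRNA reference, the counting program, its strand setting and its handling of multiply matching reads, nothing was stated in the labels or headers. The series design mentions 4 tumors and 5 oviducts.

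The 67 names of other species were left out. Tests used edgeR 4.0.16 in R 4.3.3 (filterByExpr with a minimum count of 10, TMM factors, robust quasi-likelihood test) on all 6 libraries, with two-sided Benjamini-Hochberg adjusted p-values over 227 names and a threshold of 0.05. TMM factors were between 0.734 and 1.49 in the tumors and between 0.853 and 0.946 in the oviducts. Fold intervals are 95% intervals of that fit. Strand ratios were tested where a hairpin averaged 20 or more counts, using limma 3.58.1. Ratios between members and shares were compared with exact permutation tests over the 10 splits. Count intervals and floors of 3 counts cover counting error only, since reads carry no molecular identifiers. Hairpin structures came from ViennaRNA 2.7.2, and figures from matplotlib 3.10.9 in Python 3.11.15.

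The members, lists and tests were chosen with earlier results of these data known. Named microRNAs are all members, up to 4 tested names of highest level per list, other list names given beside a count, and for each tested member the 3 names of smallest root mean square difference. Strands that share a member's hairpin locus were added. Alternatives were other scalings, filters, pseudocounts and denominators, DESeq2 1.42.0, a block for the replicate number, and each library left out in turn.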

Additional observations from a re-analysis of the deposited data

How the results depend on the processing

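The direction of miR-451a was kept in all 17 alternatives, with log2 changes between 0.42 and 2.22, but its call was lost in 9. These were RLE factors (log2 1.84, edgeR adjusted p = 0.0527), TMM on 3p names (0.89), a mean of at least 10 CPM (1.36), the replicate block (1.31, adjusted p = 0.0682) and leaving out any library but tumor 2. Single libraries left out gave 0.42 to 2.22. The cause was not tested. The sign of miR-486a-5p (as reported -0.01) turned to 0.069 under RLE factors and 0.069 by DESeq2, 0.18 under upper-quartile scaling, 0.050 for unscaled library totals, 0.14 without the members in the scaling, 0.079 with identical rows kept once and 0.20 without names that lack an arm. Leaving out single libraries gave values between -1.56, a call, and 0.40. TMM on 3p names turned miR-320-3p to -0.46 and miR-484 to -0.23. That scaling moved the median of all names to -0.66, and library totals alone moved it to 0.65. Counts called lower (58 as reported) were 26 for unscaled library totals and 92 for TMM on 3p names, and counts called higher (61) were 98 with no low-count filter.

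The miR-320 strand ratio lost its call with 5 added to each count (1.11). That of miR-486a lay between -2.10 and -1.82 without single libraries and lost its call without oviduct 1. The log2 ratios between members kept their sign, but 3 of 4 moved widely without single libraries: miR-451a to miR-144-3p between 0.072 and 1.72, miR-144-3p to miR-486a-5p between 0.12 and 1.69, and miR-484 to miR-320-3p between 0.011 and 0.45. Pooled ratios of the miR-144 strands, left out likewise after the data were seen, lay between 0.474-fold and 4.37-fold (3p) and between 1.17-fold and 4.53-fold (5p). The differences in share of miR-144-3p lay between -0.000364 and 0.000629 percentage points without single libraries, and those of miR-486a-5p between -0.150 and 0.119. Deviations of same-numbered libraries were correlated at -0.065, 0.050 and -0.138, and those of differently numbered libraries between -0.095 and 0.131. This cannot settle whether the numbers pair the samples, since samples of one animal need not deviate alike. The replicate block changed no call here other than that of miR-451a. Depth limits the miR-144 strands and miR-320-5p, which had at most 16 counts in any library.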
